A study of Mus musculus with 6 samples.

Results

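In the brain tumour myeloid cells studied by ATAC-seq, 4826 regions of the genome were called as peaks in every microglia library and in no library of bone marrow derived macrophages. They were found by merging the 6 deposited peak lists wherever peaks shared at least 1 base, which gave 87142 regions, and by keeping those hit by all 3 microglia (MG) lists and by no macrophage (BMDM) list. The members were thus chosen by measured values, the peak calls, and the counts of the same libraries describe them without a test. The member regions were 5.54% of all merged regions. ATAC-seq uses the Tn5 transposase to cut and tag accessible DNA, so a peak marks a stretch of open chromatin. Both cell types were sorted from orthotopic tumours of SB28, a mouse glioma line, in the brains of mice labelled WT, and the labels give no other allele or agent. MG were taken with low CD45 and with low or absent CD49d. BMDM were taken with CD45 and high CD49d, directly from the tumours and not from a culture of marrow. Both gates required F4/80 and CD11b, excluded LY6G and kept cells with little or no LY6C. The labels name neither the animals nor any batch behind the 3 MG and 3 BMDM libraries, so the spread between libraries may be technical.

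Microglia settle in the brain before birth and renew there, whereas macrophages of bone marrow origin enter from the blood when tissue is damaged or a tumour grows. Much of what tells one macrophage population from another lies in distal enhancers, short stretches of open chromatin that bind the lineage factor PU.1 together with factors particular to the tissue. In microglia the zinc finger protein Sall1 and signals through TGF-beta receptors are known to hold the resident state. Peak calling is a yes or no decision that also depends on how deeply a library was read, so a region without a called peak can still hold reads.

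Reads in peaks numbered between 12531808 and 23601865 in the MG libraries and between 4910448 and 19727511 in the BMDM libraries. The peak lists followed these depths in part, with 50217, 70739 and 52566 peaks in MG 1, 2 and 3, against 33982, 52631 and 17741 peaks in BMDM 1, 2 and 3. Across all table peaks, the log2 counts of 2 MG libraries had a Pearson r between 0.766 and 0.935, lowest for MG 1 with MG 2. For 2 BMDM libraries r was between 0.906 and 0.937, and for an MG with a BMDM library between 0.713 and 0.867. Summed over all peaks of 30 genes of microglial identity, normalized counts were 61871, 34393 and 39876 in MG 1, 2 and 3, against 36383, 32291 and 23631 in BMDM 1, 2 and 3. The groups overlapped there, since MG 2 lay below BMDM 1. Over 20 genes of oligodendrocytes and their progenitors the sums were 10032, 27802 and 16855 in MG, against 8998, 9367 and 8661 in BMDM. MG 1 therefore held the most counts at microglial genes, and MG 2 the most at oligodendrocyte genes. Over all table peaks the sums were 1.53e+07, 1.29e+07 and 1.22e+07 in MG, against 1.42e+07, 1.28e+07 and 8.9e+06 in BMDM. MG 1 was thus the highest library over all peaks as well, and BMDM 3 the lowest. In bulk libraries, fewer cells of a type and less accessible chromatin per cell cannot be told apart.

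Some member regions contained a whole promoter, and 4 of these promoters, picked after their values were seen, are shown as examples with large differences. The promoters of Sox2 and Olig2, transcription factor genes of neural stem cells and of the oligodendrocyte lineage, had their highest counts in MG 2. Those of Id4, an inhibitor of basic helix-loop-helix factors, and of Elavl4, a neuronal RNA-binding protein, had their highest counts in MG 1. They are printed 5′ to 3′ from RefSeq (GRCm38.p6) on the strand of the gene, 250 bases before to 50 bases after the start, with each GC box (GGGCGG or its reverse complement) in capitals. They lie at chr3:34649745-34650044 (Sox2, plus strand), chr16:91225300-91225599 (Olig2, plus strand), chr13:48260866-48261165 (Id4, plus strand) and chr4:110287478-110287777 (Elavl4, minus strand).
Sox2: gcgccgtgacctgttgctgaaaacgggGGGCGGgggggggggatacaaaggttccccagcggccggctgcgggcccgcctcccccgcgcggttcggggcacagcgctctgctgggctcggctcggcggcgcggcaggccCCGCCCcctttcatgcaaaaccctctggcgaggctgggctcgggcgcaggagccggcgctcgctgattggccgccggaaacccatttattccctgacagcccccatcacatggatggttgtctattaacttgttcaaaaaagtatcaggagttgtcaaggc
Olig2: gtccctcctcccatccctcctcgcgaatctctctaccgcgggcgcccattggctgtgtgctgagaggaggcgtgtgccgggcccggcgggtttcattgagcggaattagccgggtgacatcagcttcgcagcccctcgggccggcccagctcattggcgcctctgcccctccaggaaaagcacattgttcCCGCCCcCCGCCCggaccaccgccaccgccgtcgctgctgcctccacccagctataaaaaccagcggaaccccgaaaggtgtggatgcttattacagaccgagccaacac
Id4: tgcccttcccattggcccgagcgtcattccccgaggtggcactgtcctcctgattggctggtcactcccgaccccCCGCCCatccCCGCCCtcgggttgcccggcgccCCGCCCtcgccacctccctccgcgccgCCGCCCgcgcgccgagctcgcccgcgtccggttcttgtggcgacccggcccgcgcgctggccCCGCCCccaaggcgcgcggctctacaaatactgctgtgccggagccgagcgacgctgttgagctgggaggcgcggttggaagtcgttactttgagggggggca
Elavl4: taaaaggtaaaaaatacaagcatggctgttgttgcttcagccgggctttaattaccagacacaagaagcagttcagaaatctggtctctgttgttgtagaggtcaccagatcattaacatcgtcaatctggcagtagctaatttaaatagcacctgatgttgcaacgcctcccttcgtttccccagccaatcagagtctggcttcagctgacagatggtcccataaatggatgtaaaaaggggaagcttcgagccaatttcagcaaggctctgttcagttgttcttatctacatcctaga

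The first 3 of these promoters were rich in CpG and the Elavl4 window was not. Their GC content was 66.3% for Sox2, 65.0% for Olig2, 73.3% for Id4 and 43.7% for Elavl4. They held 27, 25, 39 and 5 CpG dinucleotides in the same order, and 2, 2, 5 and 0 GC boxes. The member region at Sox2 had normalized counts of 125, 602 and 351 in MG 1, 2 and 3, against 55.5, 47.9 and 79.7 in BMDM 1, 2 and 3. At Olig2 the counts were 58.7, 449 and 233 in MG, against 51.6, 48.6 and 45.3 in BMDM. At Id4 they were 215, 70.5 and 116 in MG, against 23.8, 25.9 and 54.3 in BMDM. At Elavl4 they were 235, 132 and 143 in MG, against 49.6, 42.1 and 68.8 in BMDM. In each of the 4 regions all MG libraries lay above all BMDM libraries, but at Olig2 MG 1 exceeded BMDM 1 by only a few counts. In 5 of 12 such promoters at named or listed genes (outside chromosome 18), the 4 shown included, all MG counts lay above all BMDM counts. This was so in 43.7% of members and 12.9% of all tested peaks. The other 7 promoters had overlapping groups. Among these was Slc4a4, a bicarbonate cotransporter gene, with 60.3, 42.6 and 51.5 counts in MG, against 43.6, 49.2 and 58.0 in BMDM, a relative difference of -0.11.

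Over all 364 RefSeq promoter windows that lay wholly inside a member region, from 338 genes, the median GC content was 63.3% with 19 CpG dinucleotides. The 10060 windows inside regions shared by all 6 lists had 62.7% and 23, and all 32851 windows in the table had 52.7% and 7. The GC box occurred on either strand in 61.3% of windows inside members, 70.4% of windows inside shared regions and 35.7% of all windows. The ETS motif CCGGAAGT was found in 1.10% of member windows, in 10.1% of shared windows and in 3.89% of all windows. The E-box CAGCTG had shares of 21.7%, 13.7% and 16.3% for the same 3 sets. The motif GAGGAAGT of PU.1 had shares of 1.37%, 3.31% and 3.20%, and the RUNX motif TGTGGTT 0.824%, 3.29% and 5.27%. These 4 of the 12 motifs searched were picked after their shares were seen. The member shares of ETS, PU.1 and RUNX rest on only 4, 5 and 3 of the 364 windows. Motifs were searched on both strands, and overlaps with other motifs were allowed. Member promoters thus resembled shared promoters in GC content. Among 1005 miRNA hairpins in the RefSeq table, 3 overlapped a member region, namely Mir1928, Mir1895 and Mir9-3.

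Regions called in one group alone were far more common for MG than for BMDM. Against the 4826 member regions, 89 regions were called in all 3 BMDM lists and in no MG list, and 16129 were called in all 6 lists. A further 9956 regions were called in 2 MG lists and no BMDM list, and 7423 in all 3 MG lists and 1 BMDM list. MG 1 was the missing list in 7227 (72.6%) of those 9956 regions, and BMDM 2 was the single BMDM list in 6964 (93.8%) of those 7423. The membership of a region therefore turned most often on the list of MG 1 and on that of BMDM 2, the longest BMDM list. Without MG 1 the rule gave 12091 regions, and without BMDM 2 it gave 11815. When each list was cut to its strongest 17741 peaks, the length of the shortest list, 721 regions were called in MG alone and 918 in BMDM alone. The excess of MG regions was thus not seen at equal list length.

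**Figure D1:**
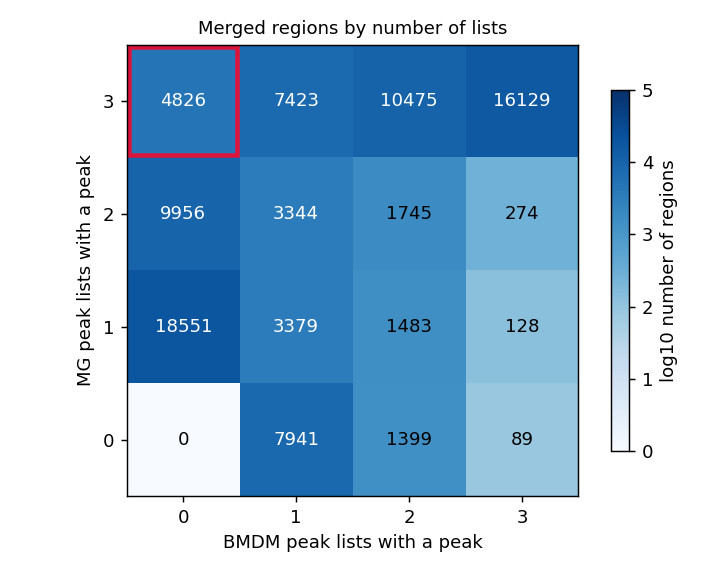
Number of merged regions by how many MG peak lists (vertical axis) and how many BMDM peak lists (horizontal axis) held a peak there, with colour on a log10 scale. The outlined square holds the 4826 member regions, and the opposite corner holds the 89 regions called in all 3 BMDM lists and no MG list.

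Single member regions were narrow and well placed between libraries. Their median width was 599 bases (quartiles 476 and 838, range 226 to 2740), against 1155 bases for regions in all 6 lists. In 4670 members (96.8%) each MG list contributed exactly 1 peak, and the outermost summits of the 3 lists lay a median of 56 bases apart. The caller's fold enrichment, which is the authors' value for each peak within its own list, had medians of 7.37, 6.22 and 7.04 among members in MG 1, 2 and 3. The medians of the whole lists were 8.42, 6.34 and 7.84, so that members were of middling height. The weakest of the 3 MG peaks had a deposited −log10 q of 2.05 to 54.2, with a median of 10.5, and 45 members (0.932%) had a weakest peak below 3. Members were scattered, with a median of 70.1 kb to the next member and 34.0 kb to the nearest region shared by all lists.

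For 4740 members the authors' deposited table held an overlapping peak, and 86 had none and so no counts. These gave 4732 distinct table peaks, and all of them passed the filter on low counts. The table was read back to normalized counts, which are reads scaled by the authors' size factors. Of the 4732 table peaks 67 were wide enough to reach a region that was not a member, so that their counts cover both. The median member peak had 57.1, 56.8 and 58.3 normalized counts in MG 1, 2 and 3, against 30.7, 29.1 and 41.7 in BMDM 1, 2 and 3. Each MG median therefore lay above each BMDM median, but none of the BMDM medians was near 0. BMDM 3 was the highest BMDM library at members but the lowest at regions in all 6 lists. The medians at those shared regions were 460, 436 and 263 in BMDM 1, 2 and 3. Some overlaps between the groups given below rest on BMDM 3, and the cause of its pattern was not tested. No member lacked reads in all 3 BMDM libraries, and 4655 members (98.4%) had at least 4 reads in every one of them. The same share over all table peaks was not computed. At the 89 regions called only in BMDM, the 83 with table peaks had medians of 17.5, 24.6 and 25.3 counts in MG and 105, 120 and 94.2 counts in BMDM. Those regions had to be called in the shortest list, that of BMDM 3, and in none of the MG lists. Their gap is therefore not comparable with that of the members.

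**Figure D2:**
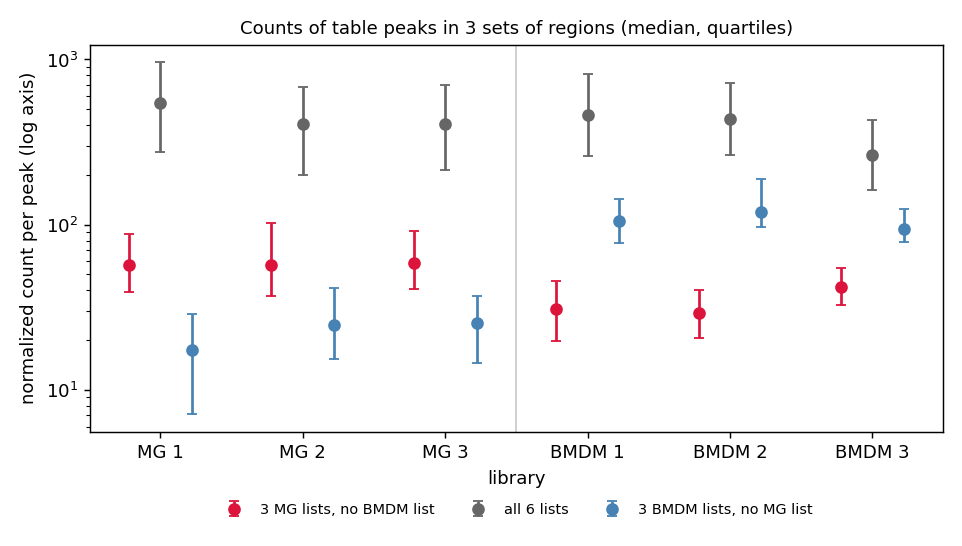
Normalized counts per table peak (log axis) in each library, with points at the median and bars from the first to the third quartile, for member regions, regions in all 6 lists and regions called only in BMDM. Member medians run from 56.8 to 58.3 in MG and from 29.1 to 41.7 in BMDM. The sets were chosen by calls in lists of unequal length, so their gaps are not comparable.

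The size of the difference varied widely among members. On the log2(normalized count + 1) scale, and relative to the median of all tested peaks, which itself lay 0.14 higher in MG, the median MG minus BMDM difference was 0.68. The quartiles were 0.30 and 1.13 and the range was -1.02 to 3.34. The MG mean was at least 2 times the BMDM mean in 1866 members (39.4%) and at least 4 times in 428 (9.04%). The shares of all table peaks at these limits were not computed. In 319 members the BMDM mean was at or above the MG mean. The MG mean was above the BMDM mean in 93.3% of members, against 57.4% of all table peaks. All 3 MG counts lay above all 3 BMDM counts in 2068 members (43.7%), against 12.9% of all tested peaks. Limma, with Benjamini-Hochberg adjusted p under 0.05 over all tested peaks, called 409 members (8.64%) higher in MG and 0 higher in BMDM, where the shares over all tested peaks were 1.54% and 5.33%. In the authors' deposited table, which runs BMDM minus MG, 1077 members were lower in BMDM and 0 higher, where the shares over all peaks were 5.38% and 9.06%. Since the members were chosen by the peak calls of the same libraries, nothing is read from these shares. Limma called no peak in either direction without MG 3, BMDM 1 or BMDM 2, and 1450 members among 11278 peaks higher in MG without MG 1, which also leaves fewer libraries. Without those 3 libraries in turn, 1396 of 4632, 1310 of 5360 and 1248 of 5658 peaks higher in MG at an unadjusted p under 0.05 were members. With voom weights on all libraries, where 0 were called, 1933 of 7149 were. Library totals gave 130 members among 1126 peaks called higher in MG, and the replicate number as a block 1299 among 5215.

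Just outside the rule, regions in 2 MG lists and no BMDM list had a median relative difference of 0.66, close to that of the members. Their median counts were 17.8, 68.3 and 42.8 in MG, against 17.9, 18.1 and 32.6 in BMDM. MG 1 lay with the BMDM libraries there, but it was the missing list in 72.6% of these regions. Its low median is thus tied to how the regions were chosen. Regions in 3 MG lists and 1 BMDM list had a median of 0.26, with counts of 76.9, 75.4 and 72.9 in MG, against 51.6, 62.2 and 58.0 in BMDM. Regions in all 6 lists had a median of 0.09.

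By position, members under the rule as applied were nearer to the average peak than to the shared regions. Of the 4740 annotated members 18.9% lay in a promoter within 1 kb of a start site, and of the 4732 table peaks 891 (18.8%) did, against 21.2% of all table peaks and 61.9% of the peaks in regions shared by all lists. This share depended on the length of the lists: with lists of equal length 34.9% of the members lay in such promoters. Distal intergenic sites made up 29.0% of members, 29.2% of all table peaks and 14.6% of shared ones. Introns after the first held 21.3% of members and 20.7% of all peaks, exons 7.14% and 5.52%, and 3′ untranslated regions 3.13% and 2.22%. The median distance to a start site was 10.6 kb for members and 9.40 kb for all peaks. Promoter members differed more between the groups than members elsewhere, with a median of 0.95 relative to the median peak, against 0.68 for distal intergenic and 0.61 for later intron members. Over all peaks those classes had medians of 0.18, -0.09 and -0.13, which is the same order. The larger difference at promoters is therefore not read as a trait of the members. The promoter members had median counts of 65.1, 89.6 and 79.7 in MG 1, 2 and 3, against 33.7, 31.7 and 50.7 in BMDM 1, 2 and 3.

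Most members had their highest MG count in MG 1 or in MG 2, as did most table peaks. Among the 3 MG libraries MG 1 held the highest count in 2344 members (49.5%), MG 2 in 1931 (40.8%) and MG 3 in 457 (9.66%), close to the shares over all table peaks of 45.0%, 46.2% and 8.75%. Members highest in MG 2 were more often promoters (25.3%) than those highest in MG 1 (15.1%), and their median relative difference was 0.94, against 0.57. In members highest in MG 2 the median counts were 45.2, 107 and 72.9 in MG 1, 2 and 3, against 29.8, 30.4 and 45.3 in BMDM. In members highest in MG 1 they were 73.0, 42.6 and 52.5 in MG, against 33.7, 27.8 and 41.7 in BMDM. In 478 members (10.1%) the highest MG count was at least 4 times the lowest. A shared call in all 3 MG lists thus still left large differences of level within the group at some members. The same share over all table peaks was not computed, so it is not read as a trait of the members.

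The 10 members with the highest fold enrichment in their weakest MG library lay at genes of varied function, and 2 of them were promoters. The first was an intron site of Map4, a microtubule-associated protein, at chr9:109985387-109985979 (mm10). It had 159, 92.4 and 108 counts in MG, against 51.6, 48.6 and 52.5 in BMDM, a relative difference of 1.05. An intron site of Kcnk9, a two-pore potassium channel gene, at chr15:72516925-72517486 had 135, 109 and 98.2 counts in MG, against 17.9, 31.1 and 29.0 in BMDM. Its relative difference of 1.98 was the largest of the 10. Cald1, which encodes the actin-binding protein caldesmon, had 240, 87.5 and 140 counts in MG, against 49.6, 46.0 and 41.7 in BMDM, at an intron site at chr6:34674547-34675315. A second member of Id4, at chr13:48227765-48228385 and 32843 bases upstream of the annotated start, had 77.7, 102 and 86.5 counts in MG, against 21.8, 15.5 and 30.8 in BMDM. At each of these 4 sites all MG libraries lay above all BMDM libraries, as in 43.7% of members and 12.9% of all tested peaks. The other members of the 10 were sites of the sialyltransferase gene St3gal3, the zinc transporter gene Slc39a14, the Wnt ligand gene Wnt8b and Cdrt4, and the promoters of the zinc finger genes Zfp976 and Zfp960, with relative differences of 0.93 to 1.71. Zfp960 had its highest count in MG 2, with 72.2, 249 and 123 counts in MG, against 39.7, 25.9 and 43.5 in BMDM. At Wnt8b the groups overlapped, with 65.1, 157 and 95.2 counts in MG, against 31.7, 46.0 and 70.7 in BMDM.

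Members were annotated to 3581 of the 18755 genes with a table peak (19.1%). For 2805 genes there was 1 member, for 219 there were 3 or more and for 40 there were 5 or more. Nav3 and Sall1 had the most members, with 9 each of 38 and 31 table peaks, which compares with 5.10% of all table peaks. Frmd4a, Ldlrad4, Ank2 and Magi1 had 8 each, Trio and Denn2b 7 each, and Chst11 and Dip2b led those with 6. In Magi1, a scaffold protein of cell junctions, 42.1% of the 19 table peaks were members, and in Denn2b, a regulator of Rab GTPases, 41.2% of 17. A gene with many table peaks can gain members through its length alone, and Trio and Frmd4a had 57 and 65 table peaks.

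These genes also divided by MG library. The 9 members of Nav3, a neuron navigator that binds microtubules, summed to 1093, 1024 and 901 counts in MG 1, 2 and 3, against 260, 214 and 348 in BMDM. This was a mean of 1006 ± 97.4 in MG and 274 ± 68.2 in BMDM (SD, n = 3 each), with the 3 MG sums at nearly the same level. Single members of Nav3 were not as even. Its promoter member was highest in MG 2, with 107, 362 and 216 counts in MG, against 57.5, 31.7 and 48.9 in BMDM. The 7 members of Denn2b summed to 524, 422 and 442 in MG, against 196, 144 and 270 in BMDM. The 8 members of Magi1 summed to 632, 383 and 423 in MG, against 190, 141 and 261 in BMDM, and were highest in MG 1. In contrast, the 6 members of Chst11, a chondroitin sulfotransferase gene, summed to 338, 3534 and 1615 in MG, against 232, 207 and 321 in BMDM. This was the widest spread among MG libraries of the 10 genes. For the 7 members of Trio, a guanine nucleotide exchange factor, the sums were 461, 2769 and 1475 in MG, against 252, 221 and 326 in BMDM. For Dip2b the 6 members summed to 426, 1901 and 999 in MG, against 228, 185 and 337 in BMDM. Chst11, Trio and Dip2b were thus highest in MG 2, with MG 1 nearest to the BMDM level, and the other peaks of Chst11 and Trio had median relative differences of -0.50 and 0.50.

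Frmd4a, a scaffold protein with a FERM domain, was also highest in MG 2, with sums over 8 members of 670, 1157 and 831 in MG, against 264, 198 and 437 in BMDM, 1 of them on a table peak that reaches beyond the member. Ldlrad4, an inhibitor of TGF-beta signalling, summed to 844, 471 and 551 in MG, against 337, 206 and 322 in BMDM. Ank2, which encodes the membrane adaptor ankyrin-B, summed to 702, 474 and 548 in MG, against 216, 214 and 293 in BMDM. Both were highest in MG 1, and none of these genes had overlapping groups in its summed counts. Nav3 and Sall1 had other peaks with medians of 1.2 and 0.87, so that the difference at those genes extended beyond the members.

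At Sall1, the transcription factor of microglial identity, all 9 members lay upstream of the start, between 11463 and 527484 bases away, and none overlapped the promoter. The promoter peak, at chr8:89042172-89044360, had 1740, 464 and 919 counts in MG, against 315, 149 and 165 in BMDM, and was not a member. Its groups did not overlap. The member 359733 bases upstream had 188, 105 and 146 counts in MG, against 53.6, 40.1 and 39.9 in BMDM, a relative difference of 1.53. It stood with members 348478 and 352285 bases upstream, whose relative differences were 1.61 and 1.58. The member farthest from the start had 148, 108 and 101 counts in MG, against 21.8, 16.8 and 25.4 in BMDM, with 2.29 the largest of the 9. Its neighbour 525409 bases upstream had 73.0, 106 and 73.9 counts in MG, against 23.8, 16.2 and 21.7 in BMDM. Among members nearer to the gene the relative differences were smaller, at 1.12 for the member 11463 bases upstream and 0.92 at 138109 bases. They were 1.2 at 227951 bases and 0.84 at 273294 bases. The difference did not fall towards the gene as a whole, since the promoter peak, which is no member, had 2.05. Summed over the 9 members, counts were 942, 588 and 733 in MG, against 234, 164 and 335 in BMDM, without overlap. Single members could still overlap. At 138109 bases upstream MG 2 had 31.2 counts and BMDM 3 had 34.4, and at 273294 bases MG 2 had 30.1 and BMDM 3 had 34.4.

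**Figure D3:**
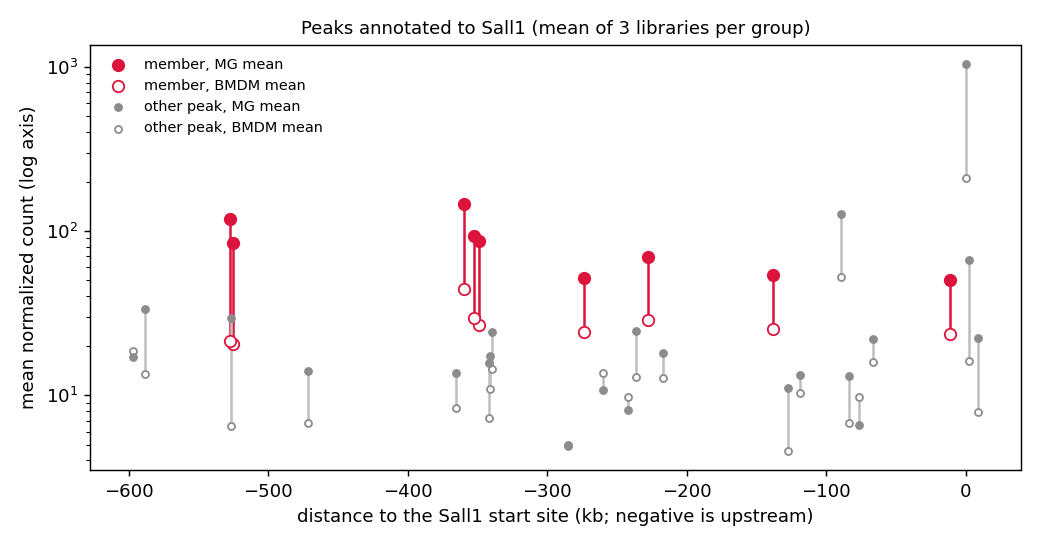
Mean normalized count (log axis) of each table peak annotated to Sall1, by distance to the start site in kb, with filled points for MG and open points for BMDM (3 libraries each) and a line joining the pair. The 9 members, in red, lie between 11463 and 527484 bases upstream, and each has a higher mean in MG.

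Of the gene lists, microglial identity had 36 members among 326 table peaks (11.0%), at 18 of its 30 genes, and the list of monocytes and macrophages had 2 among 289 (0.692%), against 5.10% of all table peaks. In the microglia list 29 of the 36 members had their highest MG count in MG 1, 6 in MG 2 and 1 in MG 3. P2ry12, the purinergic receptor of resident microglia, had 2 members, both in the promoter class of annotated transcripts, with summed counts of 252, 160 and 180 in MG, against 89.3, 88.7 and 56.2 in BMDM. Rhob, a small GTPase, had 2 members whose summed counts of 2711, 793 and 1304 in MG, against 903, 335 and 466 in BMDM, were the largest of the list and overlapped between the groups. An exon site of Upk1b, a uroplakin gene of the list, had 61.1, 42.6 and 58.3 counts in MG, against 23.8, 38.2 and 43.5 in BMDM, and overlapped too. Slco2b1, an organic anion transporter gene, had 3 members and Gpr34, a microglial receptor gene, 2. Gpr34 members summed to 186, 73.2 and 93.3 in MG, against 79.3, 58.9 and 85.1 in BMDM, with MG 2 within the BMDM range. The monocyte members were at Tgfbi and Ccr2, with relative differences of 0.35 and 0.08. Both overlapped between the groups.

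Neural lists also held members, and the library in which they were highest differed between lists. Neuronal genes had 29 members among 191 peaks (15.2%), of which 20 were highest in MG 1 and 9 in MG 2. Those of Nav3 made up 9 of the 29, and which cells in the libraries held them open was not tested. The median relative difference of the 29 was 1.39, but members did not all differ. The single members of Tbr1, Neurod2 and Rbfox3 had relative differences of -0.72, -0.12 and 0.17, each with overlapping groups. Rbfox1, a neuronal splicing factor, had 4 members with sums of 377, 169 and 250 in MG, against 85.3, 68.6 and 159 in BMDM. Celf4, another RNA-binding protein gene of neurons, had 6 members with sums of 355, 617 and 387 in MG, against 89.3, 111 and 221 in BMDM, and was highest in MG 2. At both genes the sums of all MG libraries lay above those of all BMDM libraries. At the Rbfox1 member at chr16:6889142-6889687, however, MG 2 had 41.0 counts and BMDM 3 had 43.5.

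Oligodendrocyte genes had 13 members among 165 peaks (7.88%), of which 12 were highest in MG 2. The Olig1 promoter, of a transcription factor gene next to Olig2, had 48.4, 550 and 282 counts in MG, against 39.7, 48.6 and 72.5 in BMDM, so that MG 1 lay within the BMDM range. A first intron site of Sox8, a transcription factor gene of the same lineage, had 76.2, 224 and 127 counts in MG, against 43.6, 47.9 and 76.1 in BMDM, and an intron site of Lhfpl3 had 28.6, 98.4 and 83.6 counts in MG, against 15.9, 25.3 and 29.0 in BMDM. Cspg4, the proteoglycan NG2 of oligodendrocyte progenitors and pericytes, had 3 members with sums of 160, 1868 and 962 in MG, against 105, 91.3 and 156 in BMDM. In this list MG 2 thus stood highest, MG 3 next and MG 1 close to BMDM. Cspg4 also gave 3 of the 5 members of the endothelial and pericyte list, among 138 peaks (3.62%), and the other 2 were at Kdr, a VEGF receptor gene. Astrocyte genes had 14 members among 150 peaks (9.33%), 8 of them highest in MG 2. Among them the promoter of Nfia, a transcription factor gene of astrocytes, had 54.7, 98.9 and 54.4 counts in MG, against 19.8, 21.4 and 52.5 in BMDM. The promoter of Aldh1l1, a folate enzyme and astrocyte marker, had 40.5, 137 and 64.1 counts in MG, against 41.7, 33.7 and 48.9 in BMDM, with MG 1 below BMDM 1. A distal site of Glul, the glutamine synthetase gene, was highest in MG 1, with 71.4, 32.8 and 42.8 counts in MG, against 17.9, 24.6 and 36.2 in BMDM. Astrocyte members were therefore split between MG 1 and MG 2. Neutrophil genes had 1 member among 67 peaks (1.49%), at Cebpe, and genes of T, NK and B cells 2 among 93 (2.15%), at Ebf1 and Pax5, with relative differences of 0.80, 0.81 and -0.36. Both sums of the oligodendrocyte list, over its members and over all its peaks, were highest in MG 2 and next in MG 3, and what part cells of that lineage have in the member regions was not tested.

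The rule without MG 1 changed the lists unequally. Oligodendrocyte genes then had 59 members among their 165 peaks (35.8%), neuronal genes 48 (25.1%), astrocyte genes 39 (26.0%) and microglial identity 52 (16.0%), against 12.8% of all table peaks. Without MG 2 the shares were 9.09%, 17.8%, 12.7% and 13.5%, against 6.15% of all table peaks. The share of microglial genes thus exceeded that of oligodendrocyte genes with MG 1 in the rule and fell below it without MG 1.

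**Figure D4:**
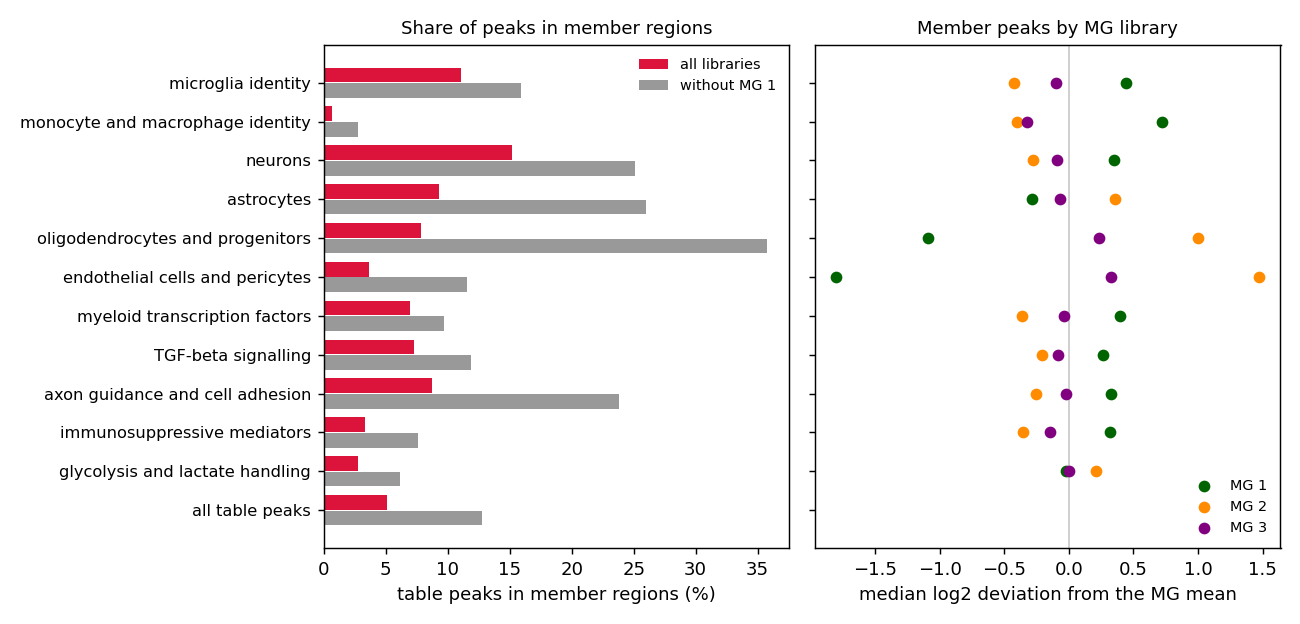
Left, the percentage of table peaks of each gene list that lie in member regions, with all libraries and with the rule applied without MG 1. Right, for the member peaks of each list, the median log2 deviation of MG 1, 2 and 3 from the MG mean: MG 1 is highest for microglial identity, and MG 2 is highest for oligodendrocytes and for endothelial cells, whose list shares Cspg4.

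Members were also counted at genes of myeloid regulation, TGF-beta signalling and axon guidance, against 5.10% of all table peaks. Myeloid transcription factors had 38 among 548 peaks (6.93%), including the 9 of Sall1 and 4 each of Irf8, Runx1 and Ets1. Spi1, which encodes PU.1, had 1 intron member with 171, 176 and 173 counts in MG, against 107, 127 and 123 in BMDM. The 3 MG libraries lay close together there and above all BMDM libraries. An intron site of Mef2a, a MADS-box factor gene, had 99.2, 38.8 and 60.3 counts in MG, against 35.7, 18.8 and 39.9 in BMDM, with MG 2 just below BMDM 3. The Irf8 members, at a gene for an interferon regulatory factor of myeloid cells, summed to 323, 212 and 244 in MG, against 171, 187 and 210 in BMDM, with little separation. Of the TGF-beta signalling list 25 of 345 peaks were members (7.25%). Its genes with members included the receptors Tgfbr1 and Tgfbr2, the integrin subunits Itgav and Itgb5 that release the active ligand, and the signal transducers Smad1 and Smad3. An Itgb5 intron member had 145, 93.5 and 104 counts in MG, against 51.6, 40.1 and 61.6 in BMDM, and 18 of the 25 members were highest in MG 1. Axon guidance and cell adhesion had 34 of 390 peaks (8.72%), the 9 of Nav3 included, and Nav2, a second neuron navigator, had 6. Without MG 1 the share of this list was 23.8% (93 members), against 12.8% of all table peaks. Of Efnb2, an ephrin ligand gene, 2 intron members summed to 248, 135 and 180 in MG, against 69.4, 51.8 and 68.8 in BMDM.

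Lists of metabolic and immunosuppressive genes held a handful of members each, against 5.10% of all table peaks that were members, and the difference was not tested. Glycolysis and lactate handling had 5 of 179 peaks (2.79%), 1 each at Slc2a3, Hk2, Slc16a7, Pdk1 and Ldhb. The member of Ldhb, a lactate dehydrogenase subunit gene, had 41.2, 70.0 and 44.7 counts in MG, against 19.8, 22.7 and 32.6 in BMDM, a relative difference of 0.88. That of the hexokinase gene Hk2 had 36.5, 42.6 and 32.1 counts in MG, against 41.7, 29.1 and 27.2 in BMDM, with overlapping groups. The glucose transporter gene Slc2a3 and the monocarboxylate transporter gene Slc16a7 had relative differences of 0.01 and 0.33. Immunosuppressive mediators had 7 of 211 peaks (3.32%). A distal member of Mrc1, the mannose receptor gene, had a relative difference of 0.66, and both members of Entpd1, the ectonucleotidase CD39 gene, had -0.41 and -0.05. The member of Il10, 16203 bases upstream of this anti-inflammatory cytokine gene, had 42.0, 83.6 and 44.7 counts in MG, against 69.4, 63.5 and 56.2 in BMDM. Although called as a peak in MG alone, it had a relative difference of -0.35.

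Peaks that were not members differed with the number of members at their gene. Genes without a member had a median relative difference of -0.07 over 57496 peaks. For genes with 1, 2 and 3 members the medians were -0.01, 0.07 and 0.10, and for the 87 genes with 4 or more it was 0.27 over 1631 peaks. At promoters within 1 kb the medians were 0.15, 0.20, 0.25, 0.23 and 0.46 in the same order. These peaks come from the same libraries as the calls that chose the members, so they are given without a test. The quartiles of each set overlapped those of the others, from -0.77 and 0.35 without a member to -0.29 and 0.79 with 4 or more.

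**Figure D5:**
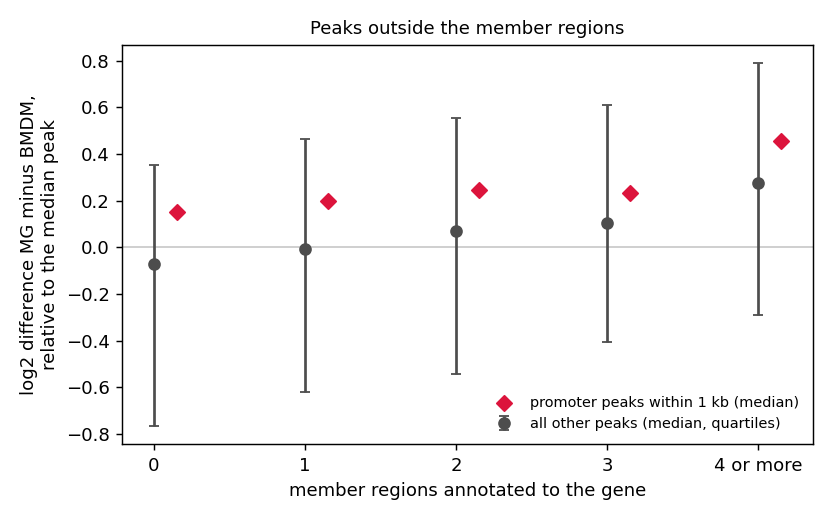
Log2 difference MG minus BMDM, relative to the median peak, of tested peaks outside the member regions, by the number of members annotated to the gene. Circles with bars are medians and quartiles over all such peaks, and diamonds are medians of promoter peaks, from 0.15 at genes without a member to 0.46 at genes with 4 or more.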

How the data were processed

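ATAC-seq was measured in 3 MG and 3 BMDM libraries, with groups and numbers from the labels. Per the submitters' processing notes the genome build was mm10, and the tools include the aligner Bowtie2 (2.4.1), the trimmer cutadapt (1.8.1), the peak caller MACS2 (2.1.1.20160309), DESeq2 (1.36.0) and, for annotation, ChIPseeker (1.32.1). Settings, duplicate removal and transposase shift: not given in the sources used here. Deposited by the authors was 1 peak list per library, with a score, a fold enrichment, a −log10 p and a −log10 q per peak. The authors' deposited table gives a log2 value per library that was variance-stabilized by the authors, a mean normalized signal per peak, a log2 fold change, a p-value and an adjusted p-value. Of its 93084 lines 155 repeated a peak and 65 had no annotation, which left 92864 peaks. Its other 8 per-sample columns were left unused because their names fit no sample listed.

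The stabilizing transformation was inverted, which gave back the deposited means within 2.37e-06 of their value and whole reads (within 0.02 read) for 100% of values to the precision written. For MG 1 the reads in peaks came to 19244734, for MG 2 to 23601865 and for MG 3 to 12531808. For BMDM 1 they came to 7167211, for BMDM 2 to 19727511 and for BMDM 3 to 4910448. A level of 3 reads corresponds to between 1.64 and 5.95 normalized counts, a limit that covers counting error only, since PCR reads are not independent molecules. Limma 3.58.1 (R 4.3.3) with a trend was fitted to log2(normalized count + 1), MG minus BMDM, over peaks with a mean of at least 10, with Benjamini-Hochberg adjusted p under 0.05. The pseudocount shrinks the differences of low peaks. The fit was tested on simulated data. Starts were converted to count from 1. Promoter windows and hairpins came from RefSeq (GRCm38.p6).

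Named are the 10 members with the highest fold enrichment in their weakest MG list, the 10 genes with the most members (names ending in Rik, Gm numbers and microRNAs passed over), and up to 4 members of each gene list by that same enrichment. Genes of the lists beyond these, among them P2ry12, Rhob, Gpr34, Slco2b1, Sox2, Olig2, Elavl4, Slc4a4, Spi1 and Irf8, were named after their values were seen, as were the 4 printed promoters. The members, the lists and the tests were chosen with earlier results of these data known. Alternatives covered merging, thresholds, list length, scaling, the pseudocount, filters, the test, the replicate number and each library.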

Additional observations from a re-analysis of the deposited data

How the results depend on the processing

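The member count stayed within 1.5 times of 4826 under 6 of the alternatives to the merging, calling and filtering rules. Among them were 4812 with peaks up to 200 bases apart merged and 4825 with a −log10 q of at least 5. The alternative that asked for overlap of 50% of the shorter interval could not change it, since each peak lies inside its merged region. The filter at a mean count of at least 10 gave 4740, which are the members with a table peak. All of these passed it, so it was no check either. Lists of equal length gave 721 regions with a promoter share of 34.9%, and a peak over at least 0.5 of the region, chosen after seeing the data, a promoter share of 21.5%. With BMDM 2 as the only BMDM list, also chosen after seeing the data, 5292 regions were called in MG alone and 8581 in BMDM alone. Without single libraries the regions numbered 4835 to 12091, highest without MG 1 and then without BMDM 2 (11815), and the promoter share was 15.5% to 18.9%.

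The median member difference was 0.78 with loess, 0.62 with a pseudocount of 4 and 0.43 on the deposited log2 scale, and 0.61 to 0.89 without single libraries. Library totals gave 130 members called higher in MG against 409, TMM factors gave 7036 peaks higher in BMDM against 4687, and loess gave 2305 higher in MG against 1352. The median over all peaks was -0.05 with library totals, 0.01 with TMM factors and 0.10 with loess. By the adjusted p in the authors' deposited table, 4994 peaks were lower and 8414 higher in BMDM, with 1077 members among the lower ones. Voom on whole reads, chosen after seeing the data, called 0 peaks in either direction and 0 members, with 7149 peaks higher in MG, 13899 higher in BMDM and 1933 members at an unadjusted p under 0.05. Limma without single libraries called 0 to 11278 peaks higher in MG, 0 to 10603 higher in BMDM and 0 to 1450 members. The 0 were reached without MG 3, BMDM 1 or BMDM 2, where 4632, 5360 and 5658 peaks were higher in MG at an unadjusted p under 0.05. Without MG 2 limma called 895 members among 2528 peaks higher in MG, and without BMDM 3 it called 141 among 413. The causes were not tested. A count-based quasi-likelihood test was planned and not run, and voom on the recovered reads stands in its place.

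Same-numbered libraries deviated together with correlations of 0.44, -0.06 and 0.36 for numbers 1, 2 and 3, so that not every pair passed 0.1 and the numbers were not taken as pairs. With the replicate number as a block, limma called 5215 peaks higher in MG, 9212 higher in BMDM and 1299 members. As a hint from the data, numbers 1 and 3 correlated best with themselves, at most 0.12 and -0.19 with another number, while number 2 reached 0.42 with another.

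At 3 reads the limit is highest in BMDM 1 and BMDM 3, at 5.95 and 5.43 normalized counts, so a missing peak in those lists says least.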
